A study of Mus musculus with 24 samples.

Results

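mmu-miR-150-5p, mmu-miR-155-5p, mmu-miR-342-3p and mmu-miR-342-5p are mouse microRNAs (miRNAs) that are rich in B and T cells. They were chosen by name, are written without the prefix mmu from here on, and all 4 are among the 1009 miRNAs listed for the mouse mammary gland and among the 544 that were tested. The levels of all 4 were lowest in lactation and higher again in early involution. Those of miR-150-5p, miR-155-5p and miR-342-3p were also lower in late pregnancy than in the glands of 10-week-old adult mice, whereas miR-342-5p showed no difference beyond the spread between these groups. The level of miR-150-5p differed the most between stages. Its mean share of the reads in lactation was 21.1-fold below that of adult mice, and the gap was smaller under another scaling.

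A miRNA is a short RNA that guides Argonaute proteins to messenger RNAs, mainly through its seed, the bases 2 to 8 from its 5′ end, and lowers the amount of protein made from them. It is cut from a hairpin, whose arms give a 5p and a 3p miRNA, and usually one arm accumulates. miR-150 is abundant in mature resting B and T cells and is known to repress the transcription factor Myb during their development. miR-155 is induced in B cells, T cells and macrophages upon activation, and is made from a non-coding host transcript. miR-342 is made from an intron of Evl, a gene for a regulator of the actin cytoskeleton, and is found in blood cells of several lineages and in other tissues, so that none of the 4 marks lymphocytes alone. The mammary gland holds lymphocytes and macrophages among its epithelium, fat and fibroblasts.

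Mammary gland pairs 4 and 5 of 24 C57BL/6 females, of an inbred mouse strain, were homogenised whole for small RNA sequencing, and each of the 4 stages has 6 mice and 6 libraries. W10 mice were adults of 10 weeks of age, P18 mice were on day 18 of gestation, Lac7 mice had been lactating for 7 days, and Inv3 mice were on the third day of involution, and the labels name no transgene, deletion or treatment. Mice were numbered 1 to 6, except that the sixth at W10 is number 7. In the design text of the series, the days of lactation and involution are exchanged and the inguinal pair alone is named, and the stages and glands used here are those of the labels and methods. The fourth gland pair normally holds a lymph node, and the methods do not say whether it was removed, so that lymphocytes of a node and lymphocytes of the gland cannot be told apart. Since whole tissue was measured, fewer cells of a type and less of a miRNA per cell cannot be told apart either.

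The values are reads per 1e6 reads assigned to the listed miRNAs (RPM), and the libraries held 660346 to 1165321 such reads, with a median of 933924. Depth differed by stage. The Lac7 libraries held 660346 to 751890 reads, fewer than every W10 library (from 911336) and every P18 library (from 870030). The Inv3 libraries held 722068 to 1165321. A count of 3 reads stood for 2.57 to 4.54 RPM. Because RPM are shares of a fixed total, a miRNA also loses RPM when others gain. The summed level of 9 epithelial miRNAs (the miR-200 and miR-183 families and miR-205) lay between 15933 and 22339 RPM in W10 mice. It lay between 52523 and 67101 in P18 mice, between 122006 and 141685 in Lac7 mice and between 25977 and 83723 in Inv3 mice. The sum was thus highest where the members were lowest. One of the 9, miR-205-5p, went against this sum, being lower at Lac7 than at P18 (log2 fold change -1.57, limma adjusted p = 9.0e-06) and higher at Inv3 than at Lac7 (2.06). The scaling by size factors, which bears on such shares of a total, is given for Lac7 against W10 and where it changed a call or a sign. The members' fold changes of Lac7 against P18 and of Inv3 against Lac7 are given in RPM only. The lymphocyte label itself could not be checked, because the libraries hold no messenger RNA of lymphocyte surface proteins. Between mice of a stage, the relations of both miR-342 arms to the blood cell miRNA miR-142a-3p did not pass their test, as given below.

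The mature sequences are shown because the seed decides which messenger RNAs a miRNA can pair with. They were read from the RefSeq annotation of GRCm38.p6, which gave a mature sequence for 3 of the 4 members, and miR-150-5p is named only. The seeds of these 3 differ, so that they are not copies of a family, and miR-150-5p could not be compared. Sequences run 5′ to 3′, and the seed (bases 2 to 8) is in capitals. The other arm of the miR-150 hairpin, miR-150-3p, and miR-142a-3p, a miRNA made by all blood cell lineages that is used as a reference here, are shown beside them.
miR-155-5p: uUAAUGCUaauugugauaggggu
miR-342-3p: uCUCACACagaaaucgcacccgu
miR-342-5p: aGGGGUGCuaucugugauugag
miR-150-3p: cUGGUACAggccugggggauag
miR-142a-3p: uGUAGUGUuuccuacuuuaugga
None of these 5 seeds was shared with another of the 1679 mature miRNA names of the same annotation, which lacks miR-150-5p (0 other names for each). Mir150 lies at chr7:45121757-45121821 on the plus strand of GRCm38, where no other annotated gene overlaps it. Mir155 lies at chr16:84714140-84714204 on the plus strand and overlaps an exon of its host, the lincRNA Mir155hg (chr16:84703167-84715245). Mir342 lies at chr12:108658620-108658718 on the plus strand, in an intron of Evl (chr12:108554720-108688516). The 3 hairpins are therefore on different chromosomes, while miR-342-3p and miR-342-5p come from the same one.

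miR-150-5p had 637 RPM in the lowest of the 6 W10 mice, 1116 in the median and 1414 in the highest. At P18 the lowest, median and highest were 127, 317 and 392 RPM. At Lac7 they were 13.4, 28.9 and 124 RPM. These were 10 to 93 reads, so that the lowest Lac7 libraries rest on few counts. At Inv3 they were 147, 200 and 482 RPM. Every W10 mouse was above every mouse of the other stages, every Lac7 mouse was below every mouse of the other stages, and P18 and Inv3 overlapped. Within a library, miR-150-5p ranked between 60 and 80 among the listed miRNAs at W10 and between 131 and 248 at Lac7.

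miR-155-5p had 182, 221 and 275 RPM in the lowest, median and highest W10 mouse. At P18 it had 65.1, 98.8 and 137 RPM. At Lac7 it had 24.1, 30.6 and 77.1 RPM. At Inv3 it had 90.9, 118 and 192 RPM. As for miR-150-5p, the median was highest at W10 and lowest at Lac7, but here the Inv3 median was above that of P18. The highest Lac7 mouse lay above the lowest P18 mouse, and the highest Inv3 mouse lay above the lowest W10 mouse.

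miR-342-3p, the arm that accumulates from its hairpin, had 2385, 2831 and 3652 RPM in the lowest, median and highest W10 mouse. At P18 it had 1274, 1619 and 2000.0 RPM. At Lac7 it had 387, 460 and 637 RPM. At Inv3 it had 1337, 1774 and 3070 RPM, and the 2 highest Inv3 mice, numbers 1 and 2 with 2618 and 3070 RPM, lay within the W10 range. No Lac7 mouse overlapped with any other stage.

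miR-342-5p, the rarer arm, had 25.8, 35.9 and 60.4 RPM in the lowest, median and highest W10 mouse. At P18 it had 25.6, 32.9 and 43.7 RPM, and at Inv3 29.1, 32.1 and 35.2 RPM. These 3 stages overlapped with each other. At Lac7 it had 7.02, 12.6 and 19.7 RPM, which were 5 to 13 reads, and all 6 mice lay below every mouse of the other stages.

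**Figure D1:**
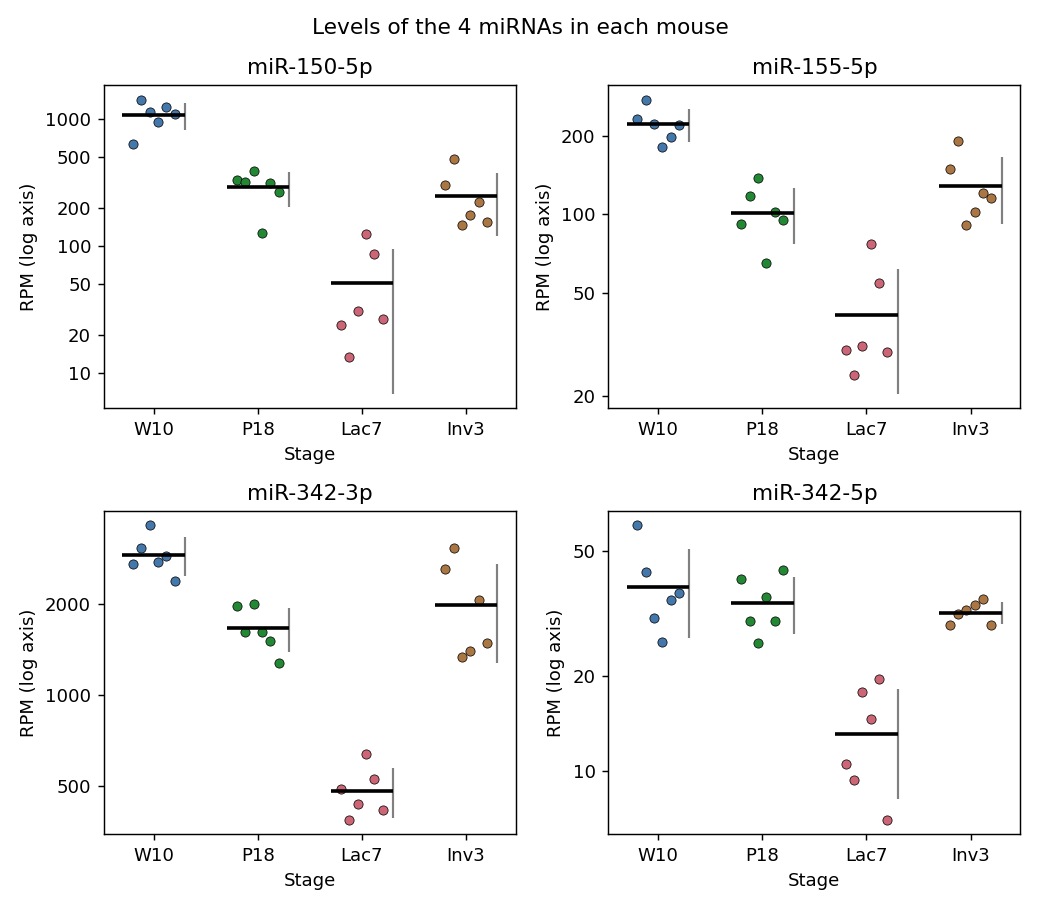
Level of miR-150-5p, miR-155-5p, miR-342-3p and miR-342-5p in each of 24 mice, in RPM on a log axis that differs between panels, by stage. Points are mice, black lines the mean of 6 mice and grey bars the mean ± SD; in all 4 panels the Lac7 mean is the lowest, and only for miR-155-5p does a Lac7 mouse reach the P18 mice.

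From W10 to P18, 3 of the 4 miRNAs fell. This comparison asks what late pregnancy changes relative to the adult gland. Here and below, folds are ratios of mean RPM, whereas log2 fold changes are differences between means of log2(RPM + 1). The folds and the log2 fold changes therefore need not match. The mean of miR-150-5p was 1076 ± 265 RPM at W10 and 291 ± 89.9 RPM at P18 (± SD, 6 mice each), 3.69-fold lower, with a log2 fold change of -1.92 on the log2(RPM + 1) scale (SE 0.39, limma adjusted p = 2.1e-04). miR-155-5p had 222 ± 32.0 RPM at W10 and 101 ± 24.5 RPM at P18, with a log2 fold change of -1.14 (SE 0.24, adjusted p = 2.4e-04). For miR-342-3p the means were 2917 ± 427 and 1667 ± 280.2 RPM, with a log2 fold change of -0.81 (SE 0.18, adjusted p = 4.7e-04). For these 3, no P18 mouse overlapped with the W10 mice. miR-342-5p had 38.6 ± 12.1 and 34.3 ± 6.99 RPM, a difference that did not pass the test (log2 fold change -0.14, 95% confidence interval -0.62 to 0.34, adjusted p = 0.66), and whose sign depended on the scaling, being 0.11 with size factors. The 3 of 4 compare with 29.4% of all tested miRNAs called lower and 12.1% called higher, and with 16.9% whose P18 mice were all below the W10 mice. The median log2 fold change was -0.98 over the 4 members and -0.32 over all tested miRNAs.

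From P18 to Lac7, all 4 miRNAs fell. This comparison asks what changes when the gland begins to make milk. miR-150-5p fell 5.73-fold to a mean of 50.9 ± 44.0 RPM (log2 fold change -2.83, SE 0.39, limma adjusted p = 1.2e-06), the sixth lowest of the 544 log2 fold changes. miR-342-3p fell 3.46-fold to 481 ± 91.1 RPM (log2 fold change -1.79, SE 0.18, adjusted p = 5.5e-09). miR-155-5p fell to 41.1 ± 20.6 RPM and miR-342-5p to 13.2 ± 5.01 RPM, and both had a log2 fold change of -1.37, with adjusted p = 2.5e-05 and 2.1e-05. All 4 were called, against 31.4% of all miRNAs called lower and 13.8% called higher. For 3 of the 4, all except miR-155-5p, the mice of the stages did not overlap, as for 19.1% of all miRNAs. The median log2 fold change was -1.58 over the members and -0.34 over all miRNAs.

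From Lac7 to Inv3, all 4 miRNAs rose. This comparison asks what changes when milk removal stops and the gland regresses. miR-150-5p rose 4.86-fold to 247 ± 128 RPM (log2 fold change 2.54, SE 0.39, limma adjusted p = 5.5e-06), the fifth highest of 544. miR-342-3p rose 4.15-fold to 1995 ± 721 RPM (log2 fold change 1.99, SE 0.18, adjusted p = 1.7e-09). miR-155-5p rose 3.13-fold to 128 ± 36.8 RPM (log2 fold change 1.70, adjusted p = 1.1e-06) and miR-342-5p 2.42-fold to 31.9 ± 2.48 RPM (log2 fold change 1.29, adjusted p = 5.1e-05). For each of the 4, every Inv3 mouse was above every Lac7 mouse, as for 13.6% of all miRNAs. Of all miRNAs 27.9% were called higher and 18.9% lower, and the median log2 fold change was 0.28 against 1.85 over the members.

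Across the longest span, W10 to Lac7, miR-150-5p had the lowest log2 fold change of all 544 miRNAs, -4.75 (SE 0.39, limma adjusted p = 3.1e-11). It kept this place with a pseudocount of 10 RPM and with size factors, but stood 15th with a pseudocount of 0.1 RPM and 12th and 6th in edgeR and DESeq2 fits of the reads, where rarer miRNAs had lower values. It was second to miR-184-3p when any one of W10 mice 2 and 4 or Lac7 mice 1, 2, 3 and 6 was left out, and first without any other one of the 12 mice. miR-342-3p fell 6.06-fold (log2 fold change -2.60) and miR-155-5p 5.40-fold (-2.52), and miR-342-5p fell 2.93-fold (-1.51, adjusted p = 2.5e-06). With size factors these falls were smaller. The log2 fold change of miR-150-5p was then -4.20, with scaled means of 875 at W10 and 61.4 at Lac7. The scaled means were 2377 and 577 for miR-342-3p, 181 and 49.4 for miR-155-5p, and 31.7 and 15.7 for miR-342-5p. All 4 were called, and for all 4 the mice did not overlap. Of all miRNAs 48.5% were called lower and 18.2% higher, and 29.4% had all Lac7 mice below the W10 mice. The medians were -2.56 over the members and -0.66 over all miRNAs.

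The return at Inv3 did not reach the W10 level for miR-150-5p. Its mean was 4.35-fold below W10 (log2 fold change -2.21, SE 0.39, limma adjusted p = 6.3e-05), and it was the only member whose Inv3 mice were all below the W10 mice, as were those of 12.1% of all miRNAs. miR-155-5p was 1.73-fold lower (log2 fold change -0.82, adjusted p = 0.0069) and miR-342-3p 1.46-fold lower (-0.61, adjusted p = 0.0075) than at W10. Both calls were lost with size factors, where the log2 fold changes were -0.44 (adjusted p = 0.19) and -0.23 (adjusted p = 0.40), and in the edgeR and DESeq2 fits. That scaling moved the median over all miRNAs from -0.41 to -0.09. miR-342-5p had a log2 fold change of -0.22 in RPM (adjusted p = 0.47) and 0.15 with size factors. Of all miRNAs, 31.2% were called lower and 7.90% higher at Inv3 than at W10.

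P18 and Inv3 are the neighbours in the order of the levels, and none of the 4 was called between them (0 of 4 by limma, with 0 also by edgeR and by DESeq2 and 0 at an unadjusted p under 0.05). The log2 fold changes of Inv3 against P18 were -0.29 for miR-150-5p (95% confidence interval -1.09 to 0.51), 0.33 for miR-155-5p (-0.16 to 0.81), 0.20 for miR-342-3p (-0.17 to 0.57) and -0.08 for miR-342-5p (-0.56 to 0.40). Of all miRNAs, 10.8% were called higher and 17.6% lower. For miR-150-5p, miR-155-5p and miR-342-3p the order in RPM was thus W10, then P18 and Inv3 without a difference beyond their spread, then Lac7, while for miR-342-5p only Lac7 stood apart. With size factors, W10 above Inv3 held for miR-150-5p alone.

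**Figure D2:**
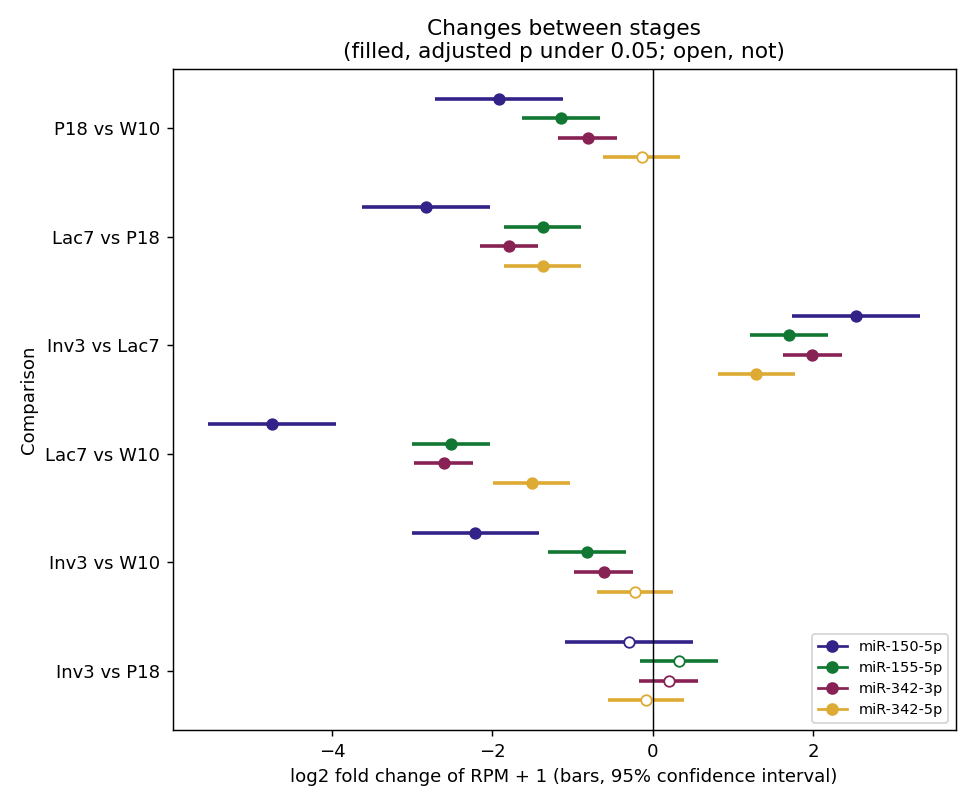
log2 fold change of RPM + 1 for the 4 miRNAs in 6 comparisons of stages (limma, 24 libraries), the first-named stage against the second. Bars are 95% confidence intervals, filled points have an adjusted p under 0.05 and open points do not; the bar of miR-150-5p for Lac7 vs W10 is the farthest to the left, and no point is filled for Inv3 vs P18.

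Some mice stood apart within their stage, and the members moved with other miRNAs there. At Lac7, mice 4 and 5 had 124 and 86.3 RPM of miR-150-5p, and the other 4 mice had 13.4 to 31.1. The same mice had 77.1 and 54.5 RPM of miR-155-5p against 24.1 to 31.1, and 637 and 525 RPM of miR-342-3p against 387 to 486. Their summed level of 7 other leukocyte miRNAs was 16358 and 15406 RPM against 5798 to 9090, and that of 4 skeletal muscle miRNAs 104 and 117 RPM against 2276 to 5001. Within the leukocyte sum, miR-142a-5p ranged from 2804 to 9787 RPM over the Lac7 mice, but miR-223-3p only from 706 to 897. The highest miR-146a-5p of the stage, 4778 RPM, was in mouse 6, so that not all of the list was highest in mice 4 and 5. The part of the muscle and leukocyte levels in these results was not tested. Without both mice, the Lac7 mean of miR-150-5p was 23.8 RPM in place of 50.9, and its log2 fold change was -5.46 against W10, -3.54 against P18 and 3.25 for Inv3 against Lac7, and all 4 members were still called in these comparisons.

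P18 mouse 4 had the lowest P18 values of miR-150-5p (127 RPM) and miR-155-5p (65.1 RPM), but its miR-342-3p, 1619 RPM, lay next to the median of the stage. Its sum of the other leukocyte miRNAs was also the lowest of the stage (14256 RPM, against 21013 to 32390). This held for both arms of miR-142a (4771 RPM of 5p and 882 of 3p) but not for the whole list. The lowest P18 values of miR-146a-5p (6474 RPM) and miR-223-3p (977 RPM) were those of mice 2 and 1. The skeletal muscle sum of P18 mouse 4 was the highest of the stage (2420 RPM). P18 mouse 6, with the highest leukocyte sum (32390 RPM), had a muscle sum of 2164 RPM, so that the sums did not run inversely throughout. Without P18 mouse 4, the log2 fold changes of P18 against W10 were -1.70 for miR-150-5p and -1.02 for miR-155-5p. At Inv3, mice 1 and 2 were the highest for miR-150-5p (301 and 482 RPM), miR-155-5p (149 and 192 RPM) and miR-342-3p. Their summed epithelial level was 29207 and 25977 RPM, and that of mouse 5 was 32947, against 64362 to 83723 in the other 3 mice. Without mice 1 and 2, the Inv3 mean was 175 RPM for miR-150-5p and 1571 RPM for miR-342-3p, and the same members were called against Lac7 (4) and against W10 (3).

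Ratios within a library do not depend on its total. They ask whether the members moved together, and whether they moved with miR-142a-3p. The ratio of miR-150-5p to miR-155-5p was 2.75, 5.11 and 6.19 in the lowest, median and highest W10 mouse. It was 1.95, 2.83 and 3.58 at P18, 0.56, 0.95 and 1.60 at Lac7, and 1.34, 1.79 and 2.51 at Inv3. The Lac7 mice lay below all W10 and P18 mice, and the Inv3 mice lay below all W10 mice. The mean log2 ratio fell by 0.77 from W10 to P18, fell by 1.46 from P18 to Lac7, and was 0.84 higher at Inv3 than at Lac7. By exact permutation over all regroupings of 6 against 6 mice, these had p = 0.011, 0.0022 and 0.013, and 0.029, 0.010 and 0.031 when adjusted over 24 tests. Between Lac7 and W10 the log2 difference was -2.23 and between Inv3 and W10 -1.39 (each exact p = 0.0022, the smallest this design can give, adjusted 0.010). Even between Inv3 and P18, where neither miRNA was called alone, the ratio differed by -0.62 (exact p = 0.0065, adjusted 0.019). Without Inv3 mice 1 and 2, the difference between Inv3 and Lac7 was 0.68 and no longer passed (exact permutation, adjusted p = 0.12), nor did it without any one of Inv3 mice 1 to 5 (0.74 to 0.87). The difference between P18 and W10 was lost without W10 mouse 2 (-0.75) or W10 mouse 5 (-0.70).

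miR-150-5p also changed relative to miR-142a-3p. It stood at 17.6% to 34.2% of the miR-142a-3p level at W10, with a median of 22.4%. The medians were 15.7% at P18, 5.85% at Lac7 and 9.17% at Inv3. The mean log2 ratio fell by 0.51 from W10 to P18, fell by 1.48 from P18 to Lac7 and was 0.80 higher at Inv3 than at Lac7 (exact permutation, adjusted p = 0.048, 0.010 and 0.015). Against W10 it differed by -1.99 at Lac7 and -1.19 at Inv3 (exact permutation, adjusted p = 0.010 and 0.015), and at Inv3 it was -0.68 from P18 (adjusted p = 0.048). Those of P18 against W10 and of Inv3 against P18 lost the call without P18 mouse 4 (-0.48, exact permutation, adjusted p = 0.095, and -0.71, 0.057). The first was also lost without any one of W10 mice 1, 2, 3 and 5 or P18 mice 2, 3, 5 and 6 (-0.57 to -0.39), and the second without any one of P18 mice 1, 2, 3 and 5 or Inv3 mice 1, 3, 4, 5 and 6 (-0.69 to -0.59).

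miR-155-5p stood at a median of 4.22% of miR-142a-3p in W10 mice, 6.01% in P18 mice, 5.59% in Lac7 mice and 5.51% in Inv3 mice. None of the 6 differences of this ratio passed the test, the largest being 0.26 on the log2 scale (P18 against W10, exact permutation, adjusted p = 0.44). The ratio of miR-342-3p to miR-142a-3p had medians of 0.55, 0.91, 0.84 and 0.82 at W10, P18, Lac7 and Inv3, and again none of 6 differences passed (the largest 0.60, P18 against W10, exact permutation, adjusted p = 0.22). The spread between mice was wide here, with an SD of the log2 ratio of miR-342-3p between 0.27 and 0.65, so that a difference of this size was not detectable.

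**Figure D3:**
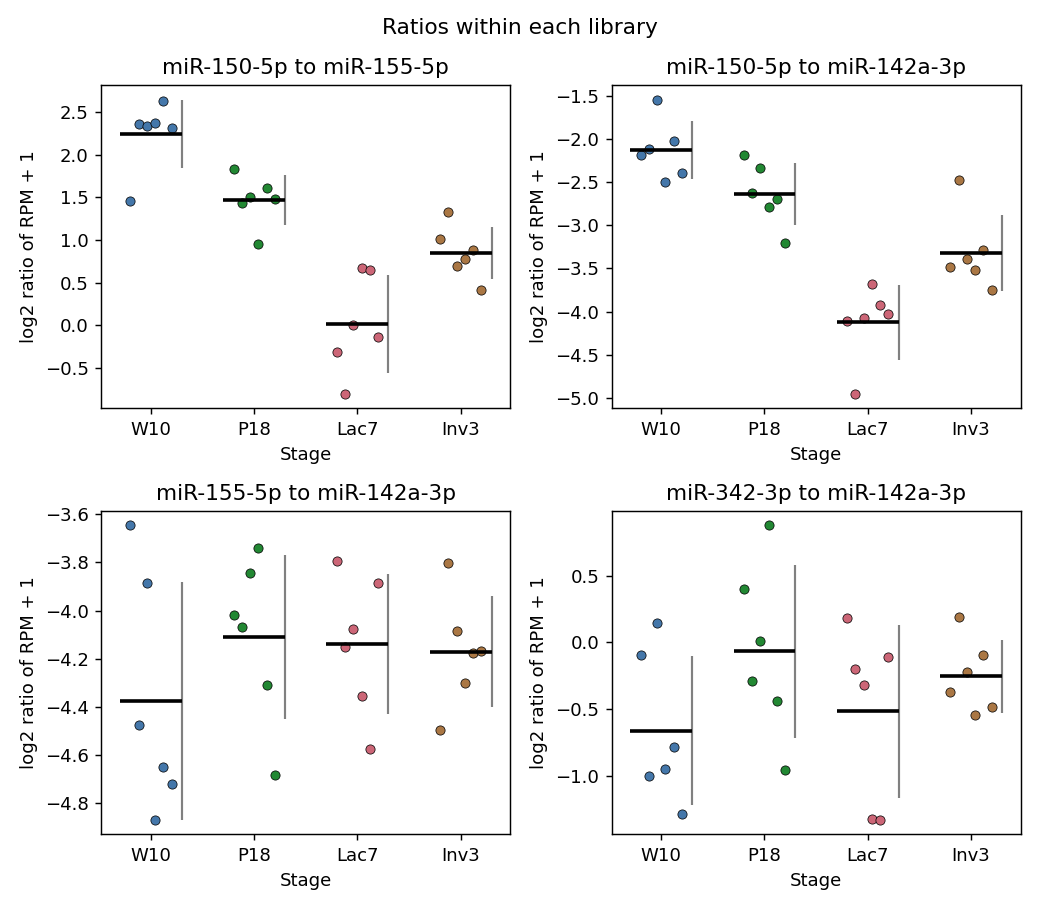
log2 ratio of RPM + 1 within each library, by stage, for miR-150-5p to miR-155-5p and for miR-150-5p, miR-155-5p and miR-342-3p to miR-142a-3p. Points are mice, black lines the mean of 6 mice and grey bars the mean ± SD; the ratios of miR-150-5p are lowest at Lac7, while the stages overlap for the other 2 ratios.

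Between mice of the same stage, miR-150-5p, miR-155-5p and miR-342-3p varied together. After subtracting the stage means from the log2(RPM + 1) values of 24 mice, miR-150-5p and miR-155-5p had Pearson's r = 0.92 (permutation p = 1e-05, the smallest that 100000 permutations can give, adjusted over 10 relations 0.0001) and Spearman's rho = 0.84 (permutation p = 8e-05, adjusted 0.0008). Without the 2 mice farthest from the median of miR-150-5p, both of Lac7, r was 0.87. Within the stages r was 0.24 among W10 mice, 0.91 among P18 mice, 0.98 among Lac7 mice and 0.96 among Inv3 mice, with 6 mice each, the W10 mice showing the weakest relation. Without Lac7 mice 4 and 5 the pooled r was 0.83. All values share the RPM scale of their library, and after scaling by size factors the relation kept its direction and its call.

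miR-342-3p was related to miR-150-5p with r = 0.68 (permutation p = 0.0002, adjusted 0.00067) and rho = 0.70 (permutation p = 0.00049, adjusted 0.0016), and to miR-155-5p with r = 0.68 (permutation p = 0.00037, adjusted 0.00093) and rho = 0.66 (permutation p = 0.0017, adjusted 0.0033). Without the 2 farthest mice these r were 0.63 and 0.55. With miR-150-5p, r within the stages was 0.32 among W10 mice, 0.31 among P18 mice, 0.92 among Lac7 mice and 0.96 among Inv3 mice. Its relation to miR-155-5p had the same form, 0.22, 0.28, 0.95 and 0.96, so that both rest on Lac7 and Inv3.

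miR-142a-3p was related to miR-150-5p (r = 0.86, permutation p = 0.00012, adjusted 0.0006, rho = 0.81, permutation p = 0.0002, adjusted 0.001, and r = 0.82 without the 2 farthest mice) and to miR-155-5p (r = 0.80, permutation p = 0.00058, adjusted 0.0012, rho = 0.74, permutation p = 0.0011, adjusted 0.0027, and r = 0.75). With miR-150-5p, r within the stages ran from 0.69 at W10 to 0.96 at Lac7. With miR-155-5p it was 0.00046 among W10 mice, 0.77 among P18 mice, 0.97 among Lac7 mice and 0.82 among Inv3 mice. Its relation to miR-342-3p did not pass (r = 0.37, permutation p = 0.055, adjusted 0.091, rho = 0.34, permutation p = 0.11, adjusted 0.18), with r of -0.37 and -0.31 at W10 and P18 and 0.87 and 0.85 at Lac7 and Inv3.

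Pooled over the stages, miR-342-5p followed none of the others. Its r was 0.02 with miR-342-3p, the other arm of its own hairpin (rho = 0.02, permutation p = 0.89 and 0.92, adjusted the same), 0.23 with miR-150-5p (rho = 0.16, permutation p = 0.43 and 0.51, adjusted 0.48 and 0.57), 0.27 with miR-155-5p (rho = 0.27, permutation p = 0.34 and 0.26, adjusted 0.48 and 0.37) and 0.22 with miR-142a-3p (rho = 0.20, permutation p = 0.42 and 0.42, adjusted 0.48 and 0.52). Within the stages the sign varied. With miR-155-5p, r was 0.63 among W10 mice, -0.63 among P18 mice, 0.58 among Lac7 mice and -0.34 among Inv3 mice. With miR-150-5p, miR-342-3p and miR-142a-3p it was 0.64, 0.52 and 0.67 among Lac7 mice and negative at each other stage. miR-342-5p rests on 5 to 56 reads per library, and the part of counting error in these r was not tested.

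**Figure D4:**
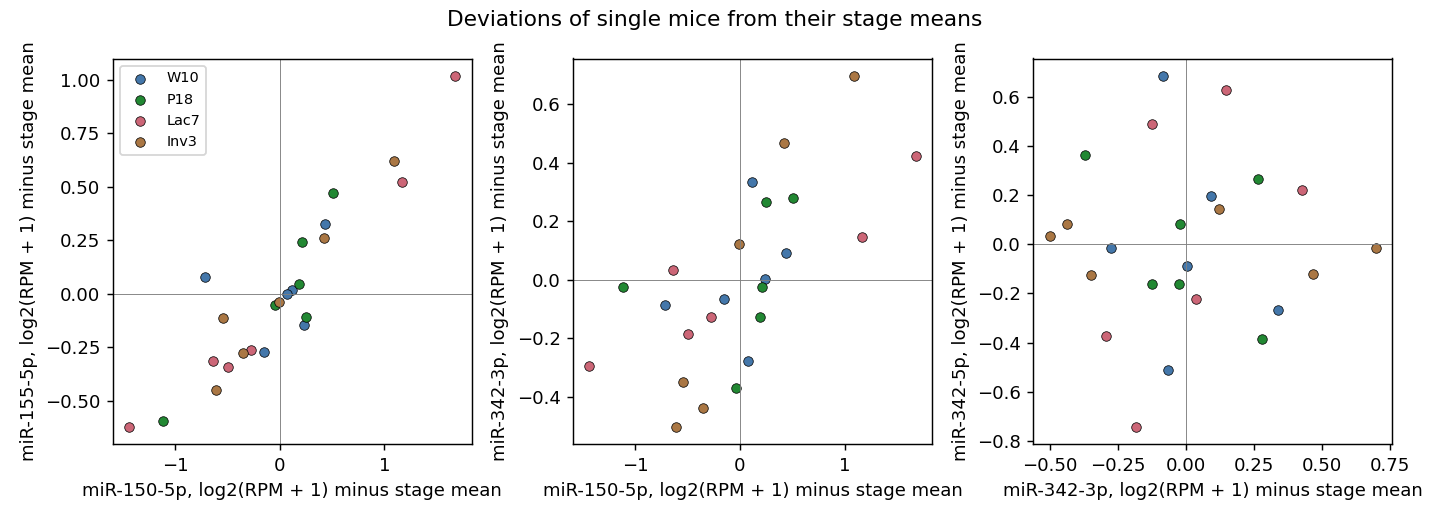
Deviation of each of 24 mice from the mean of its stage, in log2(RPM + 1), for miR-150-5p against miR-155-5p, miR-150-5p against miR-342-3p, and miR-342-3p against miR-342-5p. Points are mice coloured by stage; the first pair lies close to a line (r = 0.92), the second less so (r = 0.68), and the third shows no relation (r = 0.02).

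The arms of miR-342 did not change in proportion. The 5p arm made up 1.34 ± 0.48% of the reads of both arms in W10 mice (SD, n = 6 mice), 2.09 ± 0.68% in P18 mice, 2.65 ± 0.91% in Lac7 mice and 1.74 ± 0.59% in Inv3 mice. The lowest and highest mice were 0.83% and 2.17% at W10 and 1.66% and 3.94% at Lac7, so that the stages overlapped. The log2 ratio of 5p to 3p was 1.09 higher at Lac7 than at W10 (SE 0.29, limma adjusted p = 0.0032 over 159 hairpins with both arms tested). The other 5 comparisons did not pass, with 0.67 for P18 against W10 (adjusted p = 0.090), 0.42 for Lac7 against P18 (adjusted p = 0.34), -0.70 for Inv3 against Lac7 (adjusted p = 0.062), 0.39 for Inv3 against W10 (adjusted p = 0.54) and -0.28 for Inv3 against P18 (adjusted p = 0.53). With a pseudocount of 10 RPM, the first 3 of these passed too. That pseudocount is close to the Lac7 level of miR-342-5p (median 12.6 RPM), so that it raises the ratio at Lac7 by construction. This does not bear on P18 against W10, which holds no Lac7 mice. Arm ratios changed in many hairpins, 42.1% of the 159 for Lac7 against W10, 22.0% for P18 against W10, 18.2% for Lac7 against P18, 30.2% for Inv3 against Lac7, 5.66% for Inv3 against W10 and 16.4% for Inv3 against P18, so that the change of miR-342 is not set apart from other hairpins by its call.

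**Figure D5:**
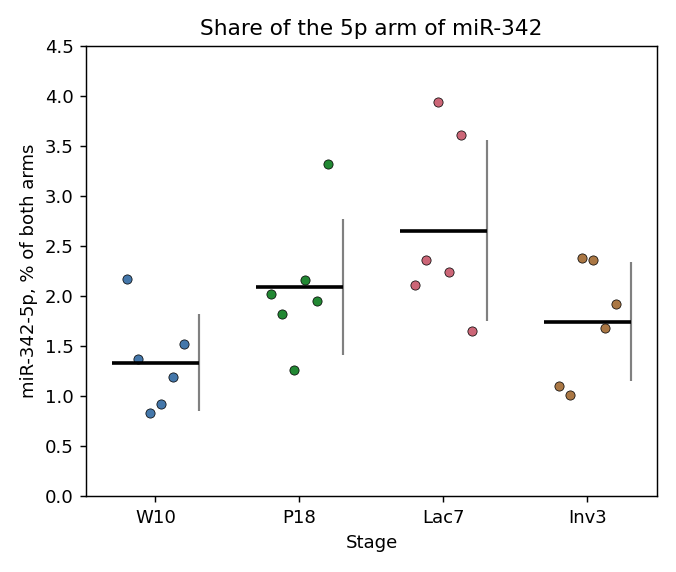
Share of miR-342-5p in the RPM of both arms of miR-342, in %, by stage, on an axis from 0. Points are mice, black lines the mean of 6 mice and grey bars the mean ± SD; the mean is 1.34% at W10 and 2.65% at Lac7, and the mice of all stages overlap.

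miR-150-3p, the other arm of miR-150, went the way of miR-150-5p. The W10 mice ranged from 34.4 to 45.5 RPM, the P18 mice from 5.42 to 20.4 RPM, the Lac7 mice from 0 to 4.54 RPM and the Inv3 mice from 6.92 to 23.4 RPM. At Lac7 these were 0 to 3 reads, which is at the limit of 3 reads, so that no fold is given there. It was lower at P18 than at W10 (log2 fold change -1.58, SE 0.36, limma adjusted p = 7.3e-04) and at Inv3 than at W10 (-1.94, adjusted p = 1.4e-04). In the fit of arm ratios, the log2 ratio of 5p to 3p of miR-150 was called lower at Lac7 than at W10 (limma adjusted p = 0.040). That call rests on the 0 to 3 reads of miR-150-3p at Lac7, and the other comparisons did not pass. miR-155-3p was not analysed here.

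Of 7 other leukocyte miRNAs, 5 fell from W10 to P18, 6 fell from P18 to Lac7 and 6 rose from Lac7 to Inv3, with 0 in the opposite direction each time, against 29.4%, 31.4% and 27.9% of all tested miRNAs called in these directions. With size factors, edgeR and DESeq2 these counts were 4, 3 and 4 for the first, 5, 5 and 3 for the second, and 6 each time for the third. Their median log2 fold changes were -0.73, -1.29 and 1.73. They include the arms of miR-142a and miR-223, the latter typical of neutrophils and monocytes, miR-146a-5p, a brake on NF-kappaB signalling, and miR-511-3p, made in macrophages. miR-147-3p, which is induced in activated macrophages, had 0 to 10.5 RPM and was not called in any of the 6 comparisons. Relative to P18, miR-146a-5p (log2 fold change 0.84, limma adjusted p = 0.0014), miR-223-3p (0.61, adjusted p = 0.0015) and miR-223-5p (1.17, adjusted p = 0.0030) were higher at Inv3, as were 10.8% of all miRNAs, and 0 of the 4 members were. Relative to W10, Inv3 levels of only miR-142a-3p (-1.02, adjusted p = 0.0076) and miR-142a-5p (-1.19, adjusted p = 0.0041) were lower among the 7, against 31.2% of all miRNAs. With size factors 0 of the 7 were lower there and miR-223-5p was called higher, and by edgeR and by DESeq2 only miR-142a-5p was lower and 3 were higher. miR-223-3p had 1884 ± 427 RPM at W10 and 1837 ± 246 at Inv3, and miR-146a-5p 13137 ± 1251 and 14669 ± 4678. Whether these differ from the members in their change was tested only for the ratios to miR-142a-3p.

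miRNAs of fibroblasts and smooth muscle moved with the members in part. Of 5 on that list, 3 fell from W10 to P18 and 1 rose, 3 fell from P18 to Lac7 with 0 rising, and 5 rose from Lac7 to Inv3, against the same shares of all miRNAs. The 3 that fell to Lac7 were miR-199a-3p (log2 fold change -1.37, limma adjusted p = 1.0e-09), miR-199a-5p (-1.05, adjusted p = 4.5e-07) and miR-214-3p (-1.61, adjusted p = 1.5e-05). The same 3 fell with size factors, by edgeR and by DESeq2, the last of which also called miR-143-3p higher at Lac7. The summed level of the 5 was 169005 to 211305 RPM in W10 mice and 191012 to 214796 RPM in P18 mice. It was 147025 to 171127 RPM in Lac7 mice and 256725 to 349601 RPM in Inv3 mice, so that the sum was highest at Inv3. Its largest part was miR-143-3p, with means of 92349, 145529, 138521 and 246220 RPM at W10, P18, Lac7 and Inv3. miR-145a-5p was also highest at Inv3. By contrast, miR-199a-3p had means of 82291, 50990, 19785 and 48927 RPM at these stages. Like the members, it was highest at W10 and lowest at Lac7, as were miR-199a-5p and miR-214-3p. The part of these miRNAs in the results was not tested.

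Among 155 other miRNAs whose mean over the libraries reached 100 RPM, those whose log2(RPM + 1) over the 24 libraries was most like miR-150-5p were miR-142b (r = 0.96), miR-142a-3p (0.95), miR-142a-5p (0.95), miR-3964 (0.94) and miR-199a-5p (0.93). The same 5 were most like miR-155-5p, with r from 0.92 to 0.96. miR-142b and miR-142a-5p are nearly the same sequence from opposite strands of a single locus, so that reads may be split between them. After subtracting the stage means, miR-142a-3p kept r = 0.86 with miR-150-5p, while miR-199a-5p, a fibroblast miRNA, had 0.46. For miR-342-3p the most alike were miR-125b-5p (0.97), miR-224-5p (0.97), miR-199a-3p (0.95), miR-23a-3p (0.95) and miR-199a-5p (0.93), and no miR-142 arm was among them. For miR-342-5p they were miR-16-5p, miR-17-3p and miR-322-5p (each 0.87), miR-199a-3p (0.84) and miR-199a-5p (0.80). These r are descriptions over libraries that share their stages and their scale.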

How the data were processed

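The authors made libraries with a QIAseq miRNA kit, assigned reads to mouse miRNAs with QuickMIRSeq and miRBase, and deposited RPM values for 1009 miRNAs in 24 libraries. The submitters' processing notes also name Trimmomatic 0.36, FastQC, MultiQC, cutadapt and the build GRCm38. Whole reads could be recovered from the RPM steps (100% of values within 0.1 read), and the limits of 3 reads cover counting error only. The members, the lists and the tests were chosen with earlier results of these data known. All members and all of the other leukocyte list are named, and for each member the 5 miRNAs most correlated with it.

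The 544 miRNAs that reached a stage mean of 1 RPM at any stage were fitted with limma 3.58.1 (R 4.3.3) on log2(RPM + 1) over the 24 libraries. Calls were two-sided and needed p under 0.05 after Benjamini-Hochberg adjustment over all miRNAs tested. Arm ratios were fitted alike over 159 hairpins. Ratios were compared by two-sided exact permutation, and correlations by 100000 permutations within stages, with scipy 1.17.1. The script was tested on simulated data. Alternatives were pseudocounts of 0.1 and 10 RPM, no filter or one at 100 RPM, the 12 libraries of a comparison, a block by mouse number, a log2 fold limit of 1, DESeq2 size factors, edgeR 4.0.16 and DESeq2 1.42.0 on the recovered reads, and each mouse left out. Leaving out Lac7 mice 4 and 5, P18 mouse 4, or Inv3 mice 1 and 2, and counting the lists under the other scalings, were chosen after the data were seen.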

Additional observations from a re-analysis of the deposited data

Results flagged for a closer look

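Among 48 groups of 6 mice (the members, miR-150-3p and the 7 other leukocyte miRNAs at 4 stages), 3 held a mouse far from the other 5, its gap to the nearest one being more than 0.625 of the range. Chance gives about 1 in 20 such groups. None of the 3 concerns a member. miR-150-3p had 23.4 RPM in Inv3 mouse 2, and 12.01 RPM in the next highest mouse. The same mouse was the highest of its stage for miR-150-5p and miR-342-3p. miR-223-5p had 83.8 RPM in Inv3 mouse 5 against 50.6 RPM in the next, and miR-511-3p had 64.6 RPM in W10 mouse 4 against 38.4 RPM.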

How the results depend on the processing

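With the filter at 100 RPM, which by construction leaves out miR-342-5p, the other 3 members kept each call they had. With the fold limit, miR-342-3p lost its call for P18 against W10, leaving 2. For Inv3 against W10, 3 members were called, but 1.0 (miR-150-5p alone) with size factors, with edgeR, with DESeq2 and with the fold limit, which by construction removes log2 fold changes under 1. The other alternatives run did not change the number of members called. Of the log2 fold changes of the members with no call, miR-342-5p reversed with size factors, edgeR and DESeq2, to 0.11, 0.11 and 0.067 for P18 against W10, 0.15, 0.13 and 0.10 for Inv3 against W10, and 0.043, 0.016 and 0.036 for Inv3 against P18, and miR-342-3p to -0.090 for Inv3 against P18 without Inv3 mice 1 and 2. With the filter at 100 RPM, 188 miRNAs remained to be tested, and 127, 132, 151, 164, 123 and 101 of them were called in the 6 comparisons (P18 against W10, Lac7 against P18, Inv3 against Lac7, Lac7 against W10, Inv3 against W10 and Inv3 against P18), where 226, 246, 255, 363, 213 and 155 of 544 were called before. With the fold limit, 150 were called for P18 against W10, 146 for Inv3 against Lac7, 136 for Inv3 against W10 and 77 for Inv3 against P18. The cause of the other changes was not tested.

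A pseudocount of 10 RPM raises the arm ratio of miR-342 at Lac7 by construction, which does not bear on P18 against W10. With this pseudocount, the log2 arm ratio of miR-342 passed for P18 against W10 (0.69), Lac7 against P18 (0.82) and Inv3 against Lac7 (-1.09). With 1 mouse left out it ranged from 0.53 to 0.83 for the first (passing without W10 mouse 1 or P18 mouse 3), from 0.29 to 0.57 for the second, from -0.81 to -0.56 for the third (passing without Lac7 mouse 6, Inv3 mouse 3 or Inv3 mouse 4), and from 0.97 to 1.25 for Lac7 against W10, which passed each time. The log2 ratio of miR-150-5p to miR-142a-3p for P18 against W10 was -0.48 with a pseudocount of 10 RPM and -0.48 without P18 mouse 4 and missed the threshold, as did -0.71 for Inv3 against P18 without that mouse. With 1 mouse left out these ran from -0.60 to -0.39 and from -0.85 to -0.59, and that of miR-150-5p to miR-155-5p from -0.93 to -0.67 for P18 against W10 and from 0.67 to 0.97 for Inv3 against Lac7, or 0.68 without Inv3 mice 1 and 2, each losing its call in some of the 12 runs, which have fewer regroupings by construction. Ratios with no call reversed around 0. That of miR-155-5p to miR-142a-3p for Lac7 against P18 was 0.15 with a pseudocount of 10 RPM, 0.13 without Lac7 mice 4 and 5, 0.046 without P18 mouse 4 and -0.14 to 0.059 with 1 mouse left out. It was -0.12 to 0.037 for Inv3 against Lac7 and -0.17 to 0.014 for Inv3 against P18 with 1 mouse left out (0.014 without P18 mouse 4). That of miR-342-3p to miR-142a-3p was -0.14 for Inv3 against Lac7 without Lac7 mice 4 and 5, 0.0018 for Inv3 against P18 without P18 mouse 4, and -0.36 to 0.0018 there with 1 mouse left out. The r of miR-342-5p with miR-342-3p was -0.021 with a pseudocount of 10 RPM, and without Lac7 mice 4 and 5 its r was -0.13, -0.019, -0.12 and -0.14 with miR-150-5p, miR-155-5p, miR-342-3p and miR-142a-3p.

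No pairing of the mice by their numbers was seen over the tested miRNAs, which cannot exclude a pairing that touches few of them. After subtracting the stage means, 33 pairs of equally numbered mice from 2 stages had r between -0.28 and 0.18, on average 0.0078, and 183 pairs with unequal numbers had -0.0014 on average. With the number as a replicate block, where W10 mouse 7 has a level of its own, 3, 4, 4, 4, 3 and 0 members were called as before. Depth limits miR-342-5p (5 to 13 reads at Lac7) and miR-150-3p (0 to 3 reads) the most, and Lac7 is the stage with the lowest median depth (693166 reads).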
